A study of Bos taurus with 8 samples.

Results

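Axon guidance genes of the semaphorin, ephrin, Slit and netrin systems were compared between bovine preadipocyte clones of intramuscular fat (IMF) and of subcutaneous fat (SF). The genes were those whose symbol named a semaphorin, plexin, ephrin, Eph receptor, Slit, Robo, netrin or UNC5 receptor. The count table held 52 of them among 18871 named genes, and all 52 had enough reads to be tested. They comprised 31 ligands and 21 receptors. The ligands were 7 secreted class 3 semaphorins, 12 membrane semaphorins, 2 ephrin-A genes, 3 ephrin-B genes, 3 Slits and 4 netrins. The receptors were 9 plexins, 5 EphA and 2 EphB receptors, 2 Robos and 3 UNC5 receptors. RefSeq listed 14 further bovine genes of these names, among them *EFNA5*, *EPHA3*, *EPHB2*, *ROBO2* and *SEMA6A*, which were not analysed here.

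RNA-seq covered 8 clones, 4 from IMF (IMF1 to IMF4) and 4 from SF (SF1 to SF4). Each was described as grown from a single cell of the stromal vascular fraction of adipose tissue from adult male Angus cross steers. The labels give no genotype or treatment, and the depot of origin was the only labelled difference between the groups. The clones sequenced were chosen ones that grew well in culture and could form fat cells, so by this description each stood for 1 selected cell. Whether each library held the progeny of 1 cell was not tested. Both myogenic and endothelial markers, given below, were detected in every IMF clone. Within a depot each clone came from its own tissue sample, and which IMF and SF clones shared a steer was not stated. The labels name 5 steers and the methods another number, and with 5 steers some would have given clones to both groups. The p-values therefore measure the spread between these clones. According to the methods the cells were harvested while subconfluent, whereas the design text places adipogenic induction before sequencing.

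Guidance cues steer growing axons and also cell migration, vessel branching and cell sorting in many tissues. Secreted semaphorins bind neuropilins held in complexes with plexins, and membrane semaphorins bind plexins directly. Ephrins are bound to the cell surface and signal to Eph receptor tyrosine kinases on the neighbouring cell, in both directions. Slits act through Robo receptors, and netrins through DCC, neogenin and the UNC5 family.

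Total counts ranged from 19654917 to 29308882 in IMF clones and from 19979899 to 24868233 in SF clones. At these depths 3 counts corresponded to 0.0981 to 0.165 CPM (counts relative to the library size scaled by edgeR's TMM factors), and such limits cover counting error only. The 11 preadipocyte and fibroblast markers summed to 31904 to 33431 CPM in IMF clones and 53328 to 60892 CPM in SF clones, and nearly all of that sum came from the collagen genes *COL1A1*, *COL1A2* and *COL3A1*. *PDGFRA* and *DCN* were detected in both depots and did not pass both thresholds (log2 fold change 0.49 and 0.75), whereas *CD34* was higher in IMF (7.59). Markers of other cell types moved with the groups as well. The 11 myogenic markers tested were all higher in IMF, with summed levels of 1044 to 1184 CPM against 25 to 110.0 CPM in SF, and *MYOD1*, *MYOG* and *CHRNA1* had 0 counts in every SF clone. Of 16 endothelial markers 14 were higher in IMF and none lower, with sums of 437 to 485 CPM against 44.9 to 82.3 CPM, and *KDR*, *EMCN*, *SELE* and *CD93* had 0 counts in every SF clone. Pericyte and smooth muscle markers summed to 2210 to 2475 CPM in IMF and 3246 to 11040 CPM in SF, with 2 of 7 higher and 4 lower. The part of these cell type markers in the differences described here was not tested, and fewer expressing cells and less RNA per cell cannot be told apart in bulk libraries. Among the other lists, 2 of 6 Schwann cell markers tested were higher in IMF and 1 lower, 1 of 9 leukocyte markers was higher and 1 lower, 1 of 11 preadipocyte and fibroblast markers was higher and 2 lower, and 1 of 4 adipocyte markers was higher.

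Guidance genes differed between the depots in both directions. The rule for a change was a Benjamini-Hochberg adjusted p-value under 0.05 in edgeR's quasi-likelihood test together with a log2 fold change of 1 or more in size. By this rule 22 of the 52 guidance genes (42.3%) changed, against 8.82% of the 18339 genes tested. In IMF 13 were higher, where 4.78% of all genes were, and 9 were lower, where 4.04% of all genes were. Both sides of the signalling took part, with 13 of 31 ligands (8 higher, 5 lower) and 9 of 21 receptors (5 higher, 4 lower). The median log2 fold change (IMF minus SF) of the 52 genes was -0.05, close to the -0.03 of all genes tested, while their median absolute log2 fold change was 1.06 against 0.38. These medians were the same with *NTN5* at its lower bound and *ROBO4* at its ratio of counts, as described with those genes. An adjusted p-value under 0.05, whatever the fold change, was reached by 27 guidance genes (51.9%), against 25.8% of all genes.

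Complete separation of the groups gave a similar picture. In 32 guidance genes (61.5%, against 32.1% of all genes) the 4 clones of one group all lay above the 4 of the other, 17 of them with IMF above (18.0% of all genes) and 15 with IMF below (14.1% of all genes). All 22 changed genes were among them. Scaling by total counts alone moved the median of all genes from -0.03 to 0.12, and 14 of 20 changed guidance genes (70%) were then higher in IMF, against 13 of 22 (59.1%) with TMM scaling. Of all genes called, 66.7% were higher in IMF with total counts alone and 54.2% with TMM scaling, so the split of the guidance genes lay near that of all genes and moved with it. *EPHA5*, *EPHB3* and *SEMA3F* then fell short of the fold threshold, at log2 fold changes of -0.96, -0.91 and -0.87. These 3 and *NTN3*, *PLXNA4*, *SEMA3G*, *SEMA4B*, *SEMA4G* and *SLIT3* were not called when the change was tested against the fold threshold itself (glmTreat).

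**Figure D1:**
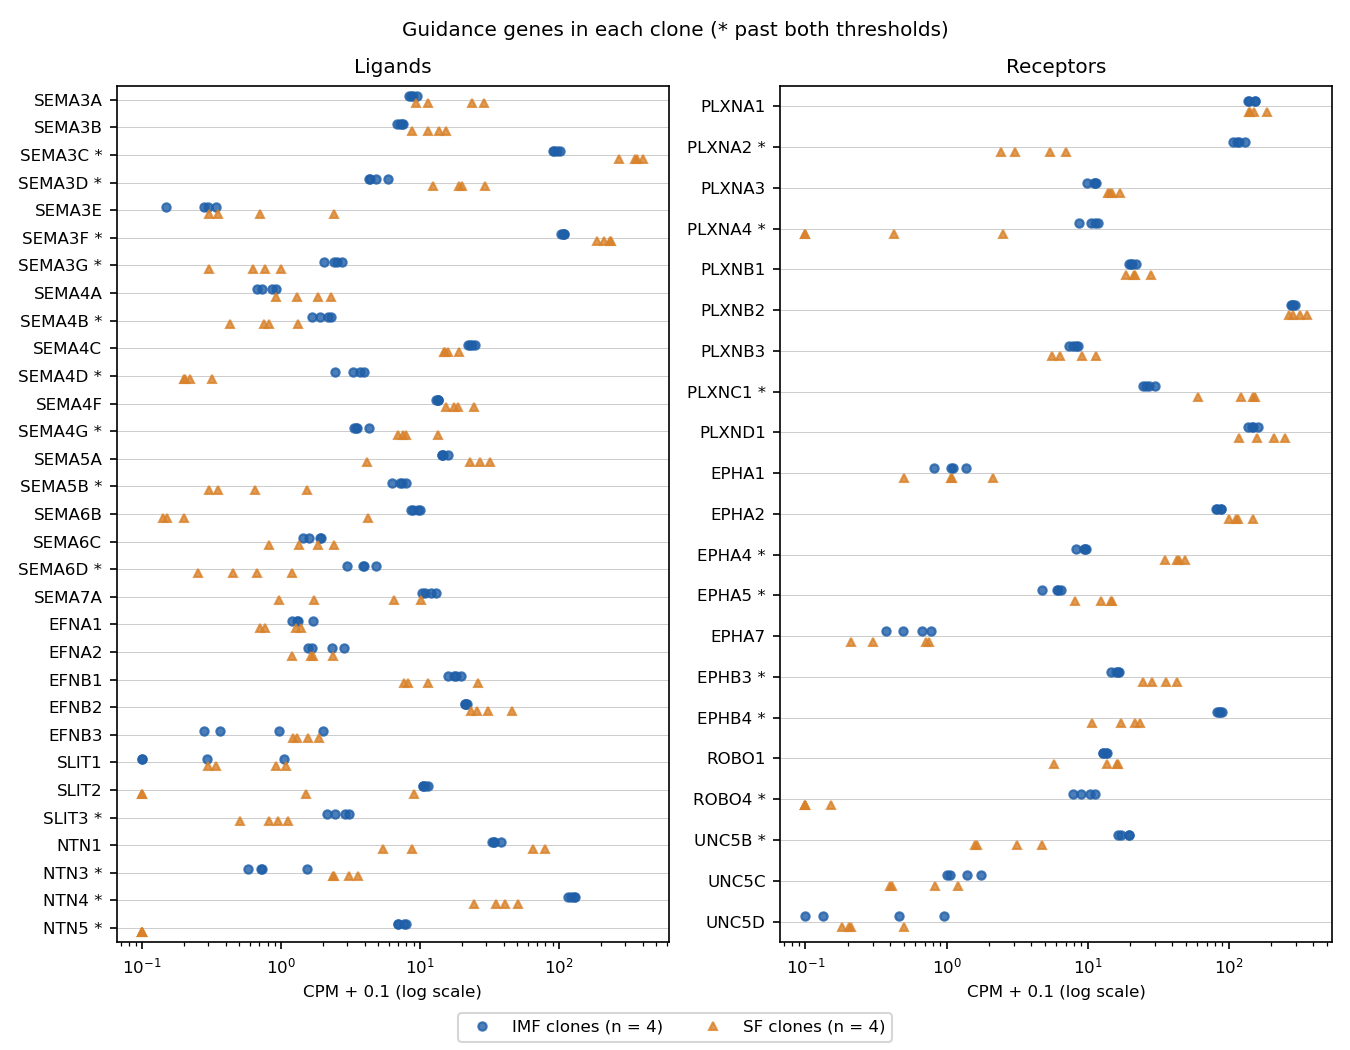
Level of each of the 52 guidance genes in every clone, as CPM + 0.1 on a log axis, with ligands on the left and receptors on the right. Circles are the 4 IMF clones and triangles the 4 SF clones, and an asterisk marks the 22 genes past both thresholds. The IMF clones lie close together in most rows while the SF clones spread more widely.

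Secreted semaphorins were, in sum, less abundant in IMF clones. The summed level of the class was 85.1 ± 5.18 TPM (SD, n = 4) in IMF and 225 ± 35.6 TPM in SF, where TPM is the count per gene length scaled to the same total in every clone. Of the 7 genes 3 were lower in IMF (*SEMA3C*, *SEMA3D* and *SEMA3F*), where 4.04% of all genes were, and 1 was higher (*SEMA3G*), where 4.78% of all genes were. The other 3 did not pass both thresholds. *SEMA3C* and *SEMA3F* together made up most of the class in both depots. As deposited, *SEMA3F* held 53.0 ± 1.17% of the class TPM in IMF and *SEMA3C* held 50.2 ± 1.90% in SF, an order in SF that depended on how the counts of *SEMA3C* were treated.

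*SEMA3C*, a ligand of neuropilin-plexin complexes known for its role in the outflow tract of the heart, was measured at 97.0, 102, 90.8 and 92.6 CPM in IMF1 to IMF4 and at 351, 406, 269.8 and 365 CPM in SF1 to SF4. Each SF clone lay well above each IMF clone, and the level was 3.64-fold higher in SF (log2 fold change -1.86, SE 0.13, adjusted p = 3.86e-05, edgeR). All 8 counts of *SEMA3C* were even numbers, a feature it shared with *EPHB4*, *EFNB3*, *EPHA7* and *SLIT1* (5 of 52 guidance genes, 9.62%, against 9.96% of the 18871 genes). Halving such counts left the log2 fold change at -1.86 and lowered the level from 31.5 to 15.8 TPM in IMF and from 113 to 56.8 TPM in SF. With halved counts *SEMA3F* was the leading gene of the class in both depots, at 65.0 ± 1.06% in IMF and 53.9 ± 4.20% in SF, and *SEMA3C* held 22.7 ± 0.98% and 33.5 ± 1.71%. The origin of the even counts was not tested.

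*SEMA3F*, which signals mainly through neuropilin-2 and is known to restrain vessel growth, was at 104, 109.6, 107 and 109 CPM in the IMF clones. In the SF clones it reached 236, 212, 188 and 235 CPM, without overlap. The log2 fold change of -1.02 (SE 0.09, adjusted p = 0.000144) lay just past the fold threshold, and it was -0.98 without SF1 and also -0.98 without SF4. *SEMA3D*, another repellent of this class, ranged from 4.24 to 5.76 CPM in IMF and from 12.3 to 29.3 CPM in SF (log2 fold change -2.08, SE 0.25, adjusted p = 0.000705).

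*SEMA3G* was the 1 secreted semaphorin with a higher level in IMF. Its CPM values were 2.64, 2.32, 1.95 and 2.43 in IMF and 0.205, 0.901, 0.528 and 0.661 in SF. The groups did not overlap (log2 fold change 2.01, SE 0.41, adjusted p = 0.00766), at a level far under those of *SEMA3C* and *SEMA3F*. *SEMA3B* had a log2 fold change of -0.78 (SE 0.17, adjusted p = 0.0120) and so missed the fold threshold, with 6.71 to 7.43 CPM in IMF and 8.64 to 15.3 CPM in SF.

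*SEMA3A*, the classical axon repellent that binds neuropilin-1, showed uneven SF clones. It stood at 8.21 to 9.45 CPM in IMF and at 9.24, 23.6, 11.3 and 28.9 CPM in SF1 to SF4, so that SF1 lay within the IMF range. Its adjusted p-value was 0.0549 with all clones (log2 fold change -1.06), 0.0138 without SF1 and 0.0326 without SF3, and by DESeq2 it was 0.0156. With all clones in edgeR it was 0.0497 with no filter on counts. It was 0.0474 when at least 10 counts in at least 4 clones were required, so the call also hung on the filter. *SEMA3E*, which binds plexin-D1 without a neuropilin, was near the detection limit with 1 to 6 counts in IMF clones and 45, 5, 5 and 11 counts in SF clones. *SEMA3E* did not pass by edgeR (log2 fold change -2.29, adjusted p = 0.103; -1.05 without SF1) and passed by DESeq2 (adjusted p = 0.0452).

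The 4 genes *SEMA3D*, *SEMA3A*, *SEMA3E* and *SEMA3C* lie in that order within 4.76 Mb on chromosome 4 of ARS-UCD2.0 (35389683 to 40147672), and *SEMA3B* and *SEMA3F* lie 65.9 kb apart on chromosome 22. All 6 of these had negative log2 fold changes. Of them 3 passed both thresholds, where 4.04% of all genes were lower in IMF, and *SEMA3A*, *SEMA3B* and *SEMA3E* did not. Whether position played a part was not tested. *SEMA3G*, the secreted semaphorin with the opposite direction, also lies on chromosome 22 (48445743 to 48456831).

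Of 12 membrane semaphorins 4 were higher in IMF (*SEMA4B*, *SEMA4D*, *SEMA5B* and *SEMA6D*), 1 was lower (*SEMA4G*) and 7 did not pass both thresholds, where 8.82% of all genes passed in either direction. Their summed level was 32.2 ± 1.77 TPM in IMF and 24.2 ± 2.35 TPM in SF (SD, n = 4), a smaller ratio than that of the secreted class. The gene with the highest mean TPM over the 8 clones was *SEMA4C*, a ligand of plexin-B2. It ranged from 22.2 to 24.6 CPM in IMF and from 14.7 to 19.0 CPM in SF, with a log2 fold change of 0.54 (SE 0.10, adjusted p = 0.00449), under the fold threshold.

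*SEMA4D*, known as CD100 and a ligand of plexin-B1, was counted 80, 98, 80 and 49 times in IMF clones and 2, 2, 3 and 4 times in SF clones. The SF clones were at the limit of detection. The fitted log2 fold change was 4.54 (SE 0.35, adjusted p = 6.89e-05), and it depended on the count added before taking logs, with 3.89 at a prior count of 2. *SEMA5B*, which carries thrombospondin repeats beside its semaphorin domain, was at 6.19 to 7.78 CPM in IMF and at 1.44, 0.250, 0.203 and 0.551 CPM in SF. This gave a log2 fold change of 3.55 (SE 0.55, adjusted p = 0.00219) with the highest SF value in SF1, and one of 4.42 without SF1 (adjusted p = 0.000132).

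*SEMA6D*, a ligand of plexin-A1, had 81, 144, 64 and 80 counts in IMF and 3, 7, 14 and 20 counts in SF (log2 fold change 2.81, SE 0.50, adjusted p = 0.00427). *SEMA4B* had 38, 64, 48 and 33 counts in IMF and 14, 13, 30 and 6 in SF (log2 fold change 1.37, SE 0.39, adjusted p = 0.0317). The *SEMA4B* call rested on few reads and was lost when any of IMF1, IMF2, IMF3, SF1 or SF2 was left out, with adjusted p-values of 0.0616, 0.0780, 0.0877, 0.0559 and 0.0711. *SEMA4B* also overlaps the coding gene *LOC107131598* in the annotation.

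*SEMA4G* was the 1 membrane semaphorin that was lower in IMF, at 3.36, 3.43, 4.22 and 3.24 CPM against 13.5, 7.51, 7.79 and 6.89 CPM in SF. The groups were separate and SF1 stood above the other SF clones (log2 fold change -1.32, SE 0.24, adjusted p = 0.00438). *SEMA4F* was also lower on average but under the fold threshold, with 12.9 to 13.4 CPM in IMF and 15.3 to 24.2 CPM in SF (log2 fold change -0.51, SE 0.14, adjusted p = 0.0245). *SEMA4A*, a low-abundance semaphorin, had separate groups (0.576 to 0.818 CPM in IMF, 0.821 to 2.20 CPM in SF) and an adjusted p-value of 0.0622, which was 0.0232 without SF1 and 0.0207 by DESeq2. In edgeR it was 0.0458 when at least 10 counts in at least 4 clones were required.

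Plexins, the semaphorin receptors, were abundant in both depots. Their summed level was 169 ± 12.7 TPM in IMF and 193 ± 34.4 TPM in SF. *PLXNB2* alone held 39.7 ± 0.89% of it in IMF and 37.3 ± 3.47% in SF, and its level of 279 to 295 CPM in IMF lay within the 269 to 360 CPM of SF. Of 9 plexins 2 were higher in IMF (*PLXNA2* and *PLXNA4*), where 4.78% of all genes were, and 1 was lower (*PLXNC1*), where 4.04% of all genes were. The other 6 did not pass both thresholds.

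*PLXNA2*, a receptor for class 3 and class 6 semaphorins, showed one of the clearest contrasts. It was at 108, 114, 130.3 and 118 CPM in IMF1 to IMF4 and at 5.34, 2.35, 6.90 and 2.98 CPM in SF1 to SF4. The lowest IMF clone exceeded the highest SF clone many times over, and the level was 26.6-fold higher in IMF (log2 fold change 4.73, SE 0.33, adjusted p = 3.94e-05). The gene spans 75115631 to 75349329 on chromosome 16. *PLXNA2* made up 30.2 ± 1.26% of the TPM of A-type plexins in IMF and 1.43 ± 0.71% in SF, while *PLXNA1* held the largest share in both (47.8 ± 0.63% and 64.0 ± 3.71%).

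*PLXNA4*, which binds class 6 semaphorins and also serves *SEMA3A* signalling, had 220, 262, 258 and 236 counts in IMF. In SF1 to SF4 it had 47, 0, 8 and 0 counts, so its SF clones were uneven as well. The log2 fold change was 3.94 (SE 1.03, adjusted p = 0.0235), and the call was lost without IMF3, IMF4 or SF3 (adjusted p = 0.0624, 0.0540 and 0.0606). SF1 held most of the SF reads of *PLXNA4*, and the log2 fold change was 6.35 without SF1 (adjusted p = 0.000749), 5.99 with limma-voom (adjusted p = 0.00547) and 4.91 with the clone number as a block (adjusted p = 0.0340), so that its size is loosely set.

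*PLXNC1*, the receptor of *SEMA7A*, went the other way. Its values were 24.6, 27.2, 25.8 and 30.1 CPM in IMF and 60.4, 153, 122 and 149 CPM in SF, where SF1 was the lowest but still above every IMF clone. The level was 4.50-fold higher in SF (log2 fold change -2.17, SE 0.27, adjusted p = 0.000781). The neighbouring gene *CEP83* overlaps *PLXNC1* and had a log2 fold change of 0.02 (adjusted p = 0.942).

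The other plexins were close between the depots. *PLXNA1* had a log2 fold change of -0.08 (SE 0.11), *PLXNB2* of -0.11 (SE 0.10) and *PLXND1*, which is prominent in endothelium, of -0.32 (SE 0.21), and these values turned to 0.07 for *PLXNA1* and 0.03 for *PLXNB2* when libraries were scaled by total counts alone. *PLXNA3* was separate between groups by a small margin (9.81 to 11.3 CPM in IMF, 13.9 to 16.9 CPM in SF, log2 fold change -0.47, adjusted p = 0.00798). Its deposited length of 1746 bases is short beside the 6624 to 13309 bases of the other plexins, which makes its TPM high relative to its counts.

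Ephrins, the membrane-bound ligands of Eph receptors, gave no gene past both thresholds among 2 ephrin-A and 3 ephrin-B genes. *EFNB2*, known as the arterial ligand of *EPHB4*, was steady in IMF at 21.4, 21.7, 21.0 and 21.0 CPM and ran from 23.3 to 46.0 CPM in SF, so that the groups were separate with an adjusted p-value of 0.0669 (log2 fold change -0.57, SE 0.20). *EFNB1* was at 15.7 to 19.5 CPM in IMF, and among SF clones only SF1 exceeded that range (26.3, 7.61, 8.08 and 11.2 CPM). The 2 ephrin-A genes analysed were scarce, with *EFNA2* the higher of the pair at 1.69 ± 0.56 TPM in IMF and 1.36 ± 0.50 TPM in SF. *EFNA3*, *EFNA4* and *EFNA5* were not analysed here, so the level of the whole class is not known. *EFNB3* averaged under 1 TPM in both depots.

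The EphB receptors differed between the depots in opposite directions. *EPHB4*, the receptor of ephrin-B2 that marks venous endothelium, was at 87.5, 84.9, 89.3 and 83.4 CPM in IMF and at 23.3, 17.2, 21.7 and 10.6 CPM in SF (log2 fold change 2.24, SE 0.22, adjusted p = 0.000231). *EPHB3* was at 14.5, 16.3, 16.7 and 15.9 CPM in IMF and at 42.9, 28.6, 35.7 and 24.5 CPM in SF (log2 fold change -1.05, SE 0.17, adjusted p = 0.00239). In neither gene did the groups overlap, though *EPHB3* fell under the fold threshold without SF1 (log2 fold change -0.90).

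Of the 2 EphB receptors analysed, the leading one thus differed between the depots. *EPHB1*, *EPHB2* and *EPHB6* were not analysed here. *EPHB4* made up 82.6 ± 0.97% of the summed TPM of the pair in IMF and 32.2 ± 3.39% in SF, and *EPHB3* the remainder. Within each clone the ratio of *EPHB4* to *EPHB3* TPM was 4.55 to 5.27 in IMF and 0.376 to 0.530 in SF. The counts of *EPHB4* were all even, and with halved counts its share was 70.4 ± 1.42% in IMF and 19.2 ± 2.38% in SF, with the order of the pair the same in each depot and the log2 fold change again 2.24. *EPHB4* lies at 35810493 to 35827437 on chromosome 25 and *EPHB3* at 82610937 to 82631511 on chromosome 1.

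EphA receptors were lower in IMF where they changed. *EPHA4* and *EPHA5* passed both thresholds and the other 3 did not, where 4.04% of all genes were lower in IMF. The summed level of the class was 47.2 ± 4.61 TPM in IMF against 92.1 ± 3.74 TPM in SF. *EPHA4*, which binds ephrins of both types, was at 8.25, 9.65, 9.38 and 9.42 CPM in IMF and at 49.0, 42.7, 35.4 and 44.4 CPM in SF. This 4.67-fold higher level in SF had a small error (log2 fold change -2.22, SE 0.11, adjusted p = 8.20e-06). *EPHA5* ranged from 4.65 to 6.38 CPM in IMF and from 8.06 to 14.9 CPM in SF (log2 fold change -1.11, SE 0.21, adjusted p = 0.00531).

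*EPHA2* was the most abundant by TPM of the EphA receptors analysed, in both depots. It was at 81.9 to 88.5 CPM in IMF and 101 to 149 CPM in SF, separate between groups but with a log2 fold change of -0.49 (SE 0.12, adjusted p = 0.0181). It held 79.2 ± 1.60% of the EphA TPM in IMF and 55.6 ± 4.43% in SF, and *EPHA4* held 17.8 ± 1.45% and 41.8 ± 4.47%. The deposited length of *EPHA4* is 1825 bases, where the other Eph receptors have 3375 to 11706, which raises its TPM in both depots alike. How the lengths were set was not given in the sources used here.

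**Figure D2:**
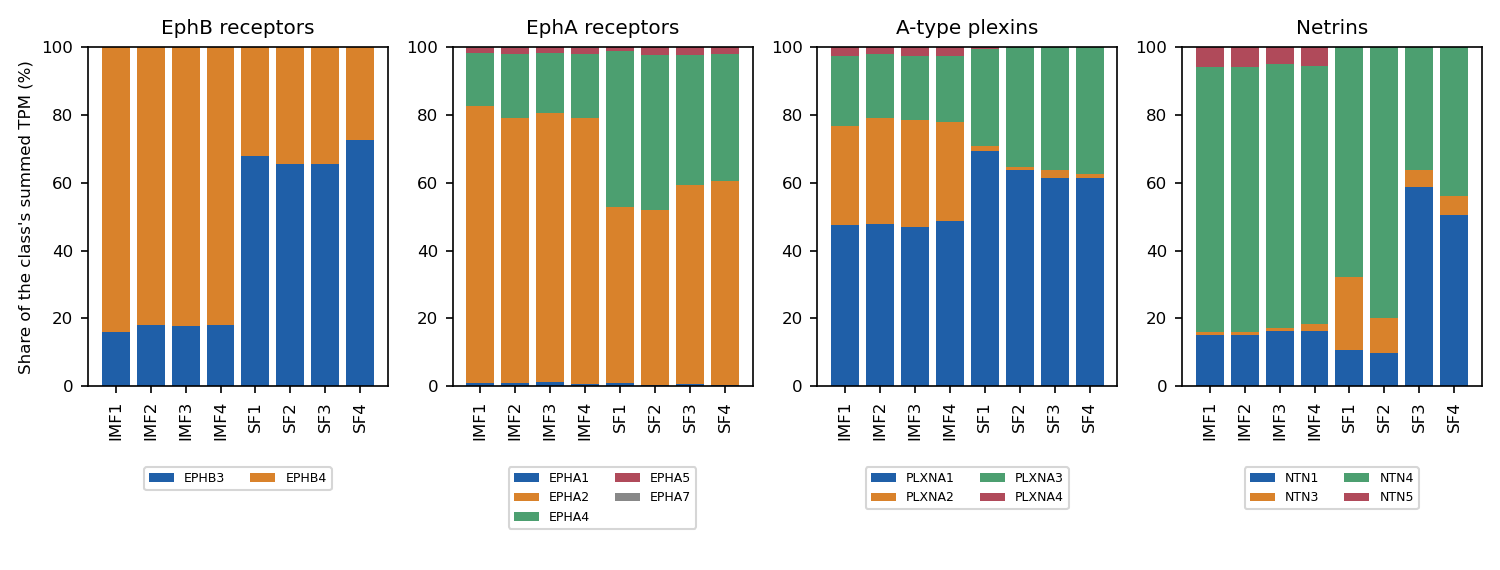
Share of each gene in the summed TPM of its class in every clone, in percent, for EphB receptors, EphA receptors, A-type plexins and netrins. Each class holds only the genes analysed here. *EPHB4* holds 82.0 to 84.0% of the EphB bar in IMF clones and 27.3 to 34.6% in SF clones, and *NTN1* differs between SF1 and SF2 on the one side and SF3 and SF4 on the other.

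Slit ligands were low throughout, with a summed level of 3.18 ± 0.18 TPM in IMF and 0.820 ± 0.95 TPM in SF. *SLIT3* was higher in IMF, at 2.78, 2.98, 2.36 and 2.05 CPM against 0.411, 0.851, 1.01 and 0.716 CPM in SF (log2 fold change 1.75, SE 0.32, adjusted p = 0.00457). *SLIT2* made up most of the class in IMF but did not pass, and its SF clones were uneven, as described with the other uneven genes.

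Of the Robo receptors *ROBO4*, known from endothelial cells, showed the sharper difference. It had 162, 316, 195 and 236 counts in IMF1 to IMF4 and 1, 0, 0 and 0 counts in SF1 to SF4. The SF group held 1 read in all, and the ratio of depth-scaled counts was 791, with a 95% counting interval from 142 to 31288 (adjusted p = 9.65e-06, edgeR). *ROBO1*, the broadly expressed member, was at 12.8 to 13.7 CPM in IMF and at 13.6, 16.0, 16.4 and 5.73 CPM in SF, with a log2 fold change of 0.03 (SE 0.28). Thus *ROBO4* made up 61.1 ± 4.07% of the TPM of these 2 Robo genes in IMF, and *ROBO1* 99.8 ± 0.41% in SF. *ROBO4* and *EPHB4* are both known from endothelium. Of the 16 endothelial markers given above 14 were higher in IMF, as were all 11 myogenic markers tested. *FLT1* (log2 fold change -0.77) and *CLDN5* (0.24) did not pass both thresholds. *EFNB2* (-0.57) and *PLXND1* (-0.32), also known from vessels, had negative log2 fold changes. Whether these markers and the guidance genes were linked was not tested.

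Netrins were more abundant in IMF, with 67.0 ± 6.86 TPM in sum against 29.9 ± 11.7 TPM in SF. *NTN4* and *NTN5* were higher in IMF, *NTN3* was lower and *NTN1* did not pass. *NTN4*, a netrin of basement membranes that binds laminin, was at 123, 127, 131 and 116 CPM in IMF and at 24.2, 51.1, 35.5 and 40.8 CPM in SF. The groups were far apart (log2 fold change 1.71, SE 0.20, adjusted p = 0.000595), and *NTN4* was the most abundant netrin in the IMF clones, with 77.6 ± 0.90% of the netrin TPM.

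*NTN5*, a short netrin-related gene, was counted 159, 239, 151 and 143 times in IMF1 to IMF4 and 0 times in each SF clone. Taking 3 counts per SF clone as the limit, it was at least 49.2-fold higher in IMF (adjusted p = 4.18e-05, edgeR). It spans 55294153 to 55299636 on chromosome 18 and overlaps *SEC1*, which had 52, 93, 68 and 40 counts in IMF and 0, 0, 1 and 0 in SF. The sources describe the libraries both as non-stranded and as made with a dUTP second strand, so reads of the *NTN5* and *SEC1* overlap could not be assigned with certainty.

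*NTN3* was scarce and lower in IMF. It had 10, 19, 14 and 30 counts in IMF and 68, 60, 56 and 42 in SF, with IMF4 the highest of its group but under all SF clones (log2 fold change -1.81, SE 0.38, adjusted p = 0.00933).

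The UNC5 receptors, which convey repulsion by netrins, were represented mainly by *UNC5B*. It was at 16.2, 17.0, 19.5 and 19.5 CPM in IMF and at 4.62, 1.55, 3.04 and 1.49 CPM in SF, and the level was 6.72-fold higher in IMF (log2 fold change 2.75, SE 0.35, adjusted p = 0.000802). The summed UNC5 level was 4.68 ± 0.51 TPM in IMF and 0.789 ± 0.31 TPM in SF. *UNC5B* is another receptor that endothelium expresses. *UNC5C* and *UNC5D* stayed under 2 CPM in every clone and did not pass.

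**Figure D3:**
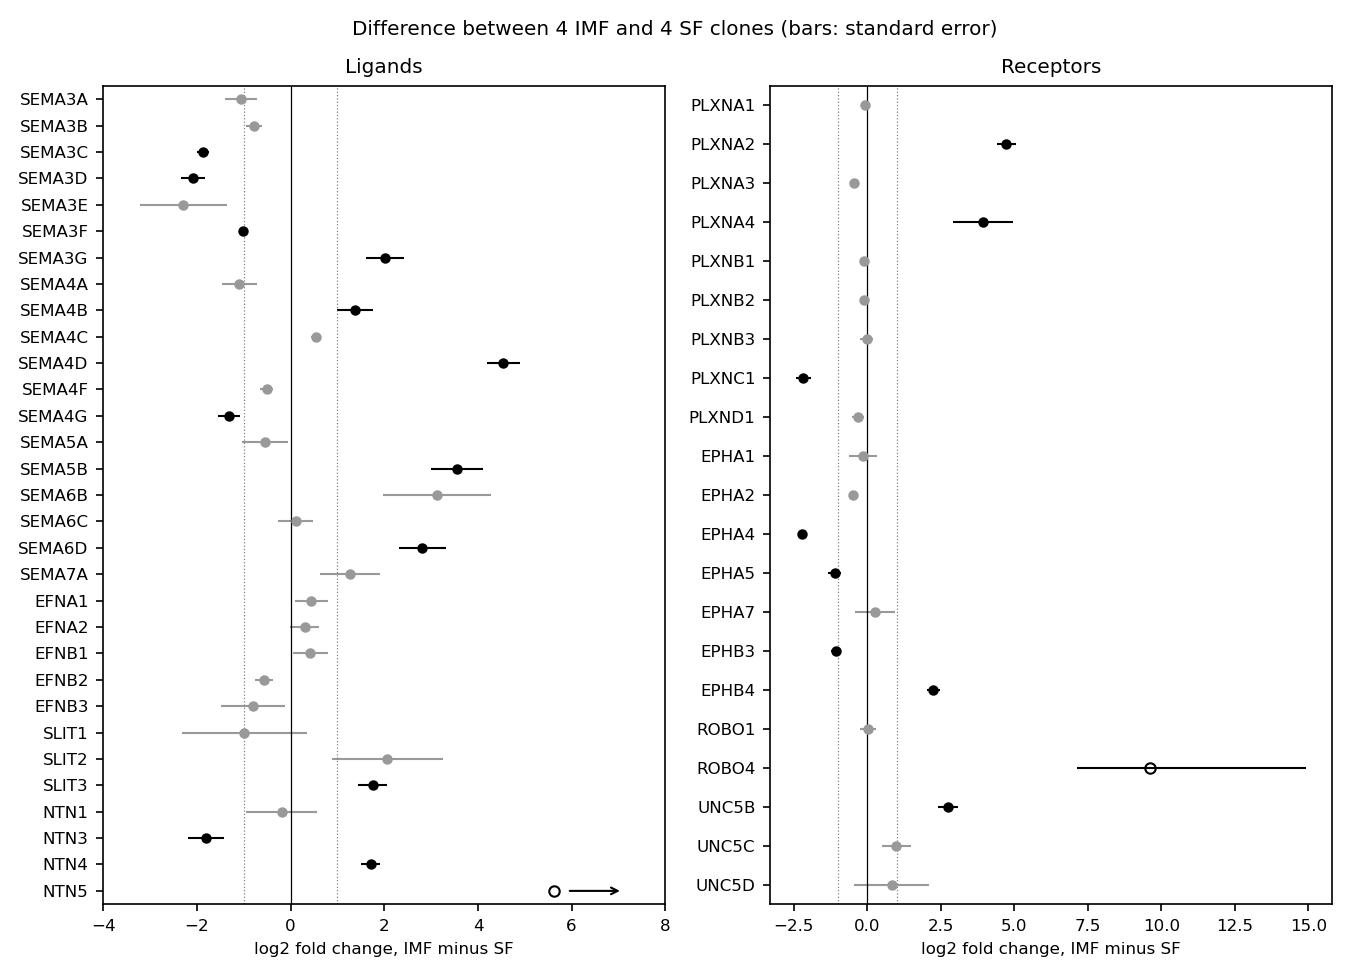
Log2 fold change (IMF minus SF) of each guidance gene with its standard error as a bar, black where both thresholds were passed and grey otherwise, with dotted lines at the fold threshold. The open circle of *NTN5* is the lower bound of 49.2-fold with an arrow, and that of *ROBO4* is the ratio of counts (791) with its 95% counting interval. *PLXNA2* at 4.73 and *SEMA4D* at 4.54 lead the filled points.

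A further pattern was the spread among SF clones. In the 24 guidance genes with a mean of at least 5 CPM in both groups, the median coefficient of variation was 5.26% among IMF clones and 24.98% among SF clones, and it was larger in SF in 24 of 24. Over all 10720 genes with such means the medians were 6.54% and 13.3%, and it was larger in SF in 8043 (75.03%). SF clones thus varied more than IMF clones in general, and these values are a description without a test.

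*NTN1*, the founding netrin, was the most uneven of the abundant genes. It was at 33.0, 34.0, 38.0 and 33.8 CPM in IMF1 to IMF4, and at 5.34, 8.61, 79.7 and 65.0 CPM in SF1 to SF4. A pair of SF clones lay under all IMF clones and the other pair above them, so the log2 fold change of -0.19 (SE 0.75) describes neither pair. It was 0.38 without SF3 and 0.15 without SF4. Its share of the netrin TPM was 10.8% and 9.74% in SF1 and SF2 and 58.7% and 50.6% in SF3 and SF4.

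*SLIT2*, a repellent ligand of Robo receptors, had 219, 318, 238 and 240 counts in IMF and 0, 0, 35 and 163 in SF. SF4 approached the IMF level, at 8.98 CPM against 10.4 to 11.4 CPM, while SF1 and SF2 had no read (3 counts would be 0.154 and 0.150 CPM). The adjusted p-value was 0.244 with all clones (log2 fold change 2.07, SE 1.19) and 0.0233 without SF4 (log2 fold change 4.40). By limma-voom *SLIT2* passed with all clones (log2 fold change 5.13, adjusted p = 0.0202), and with the clone number as a block it did not (3.62, adjusted p = 0.123).

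*SEMA6B*, a ligand of plexin-A4, had a similar exception in the same clone. Its counts were 179, 303, 210 and 185 in IMF and 1, 2, 1 and 75 in SF. With all clones the log2 fold change was 3.13 (SE 1.15, adjusted p = 0.0798), and without SF4 it was 7.08 (adjusted p = 1.28e-05). With all clones *SEMA6B* passed by DESeq2 (3.09, adjusted p = 0.0366), by limma-voom (5.52, adjusted p = 0.00312) and with total counts alone (3.37, adjusted p = 0.0492), so the call depended on the tool as well.

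*SEMA7A*, a semaphorin anchored by a lipid that binds plexin-C1 and integrins, was at 10.7, 11.9, 10.2 and 12.99 CPM in IMF and at 0.873, 6.46, 1.62 and 10.1 CPM in SF. All IMF clones lay above SF4, the highest SF clone, and the adjusted p-value was 0.183 (log2 fold change 1.28, SE 0.64). By limma-voom *SEMA7A* had an adjusted p-value of 0.0305 and so passed (log2 fold change 1.95), and without SF4 edgeR gave 1.95 as well (adjusted p = 0.0592). *SEMA5A* was the reverse case, with SF1 at 4.05 CPM far under the 23.0 to 31.6 CPM of the other SF clones and the 14.2 to 15.7 CPM of IMF.

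**Figure D4:**
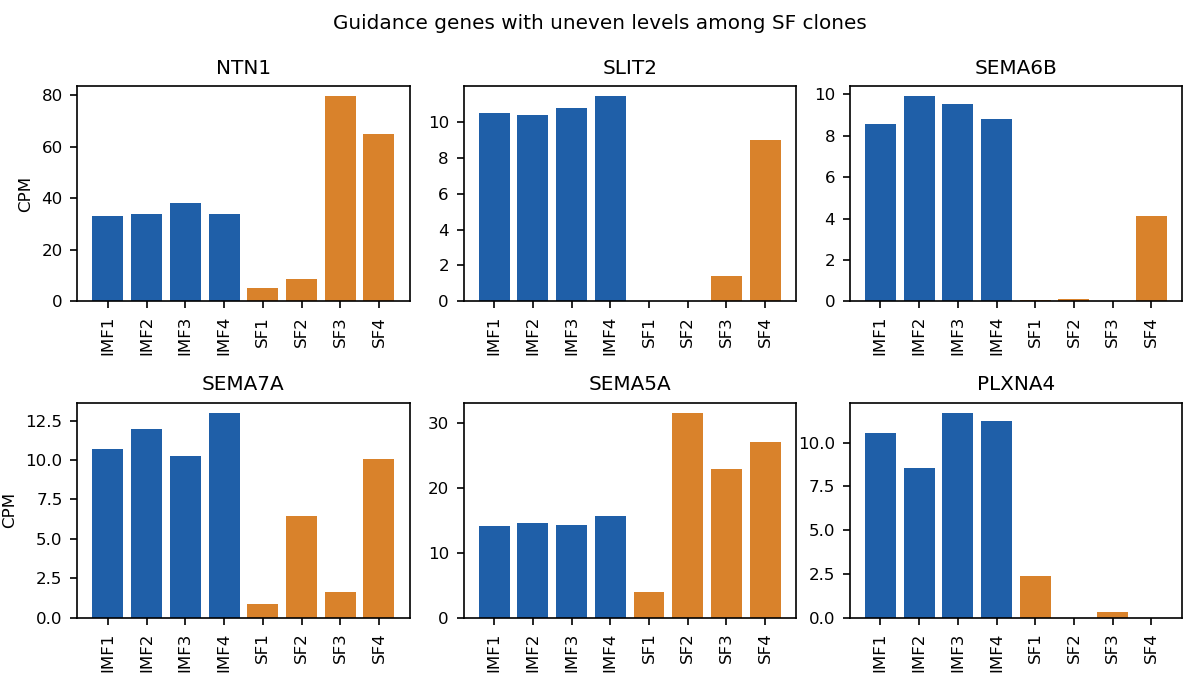
CPM in each clone of 6 guidance genes whose SF clones were uneven, IMF clones in blue and SF clones in orange, with axes that start at 0. *NTN1* stands at 5.34 and 8.61 CPM in SF1 and SF2 and at 79.7 and 65.0 CPM in SF3 and SF4, and *SLIT2* and *SEMA6B* are highest in SF4 among the SF clones.

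Ligands and their receptors were then set side by side in 19 known pairs, chosen after their values were seen. Other pairings of these families were left out, among them *NTN4* with *UNC5B* and *SLIT3* with *ROBO4*, so no count over the pairs is given. For the pair of *EFNB2* and *EPHB4* the ligand stood at 7.83 TPM in IMF and 11.3 TPM in SF and the receptor at 33.5 and 7.04 TPM, and only the receptor passed the thresholds. With halved even counts *EPHB4* stood at 16.8 and 3.53 TPM, still above *EFNB2* in IMF and below it in SF.

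Some pairs differed on the ligand side. *SEMA3C* was at 31.5 TPM in IMF and 113 TPM in SF (15.8 and 56.8 TPM with halved even counts), beside its receptor component *NRP1* at 40.4 and 55.7 TPM (log2 fold change -0.50, adjusted p = 0.0289). Whether *SEMA3C* exceeded *NRP1* in SF thus depended on how its counts were treated. *SEMA4D* was at 0.838 and 0.0335 TPM and its receptor *PLXNB1* at 4.33 and 4.63 TPM. *SEMA6D* changed likewise beside *PLXNA1*, and *SLIT3* beside *ROBO1*.

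*SEMA7A* and *PLXNC1* had fold changes of opposite sign. The ratio of *SEMA7A* to *PLXNC1* TPM was 0.812 to 0.897 in IMF clones and 0.0272 to 0.138 in SF clones, although only *PLXNC1* passed the thresholds. *UNC5B* was at 4.39 TPM in IMF and 0.644 TPM in SF beside *NTN1* at 10.5 and 11.6 TPM, and *NEO1*, the receptor neogenin, was at 11.7 and 8.28 TPM (log2 fold change 0.48, adjusted p = 0.0198).

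**Figure D5:**
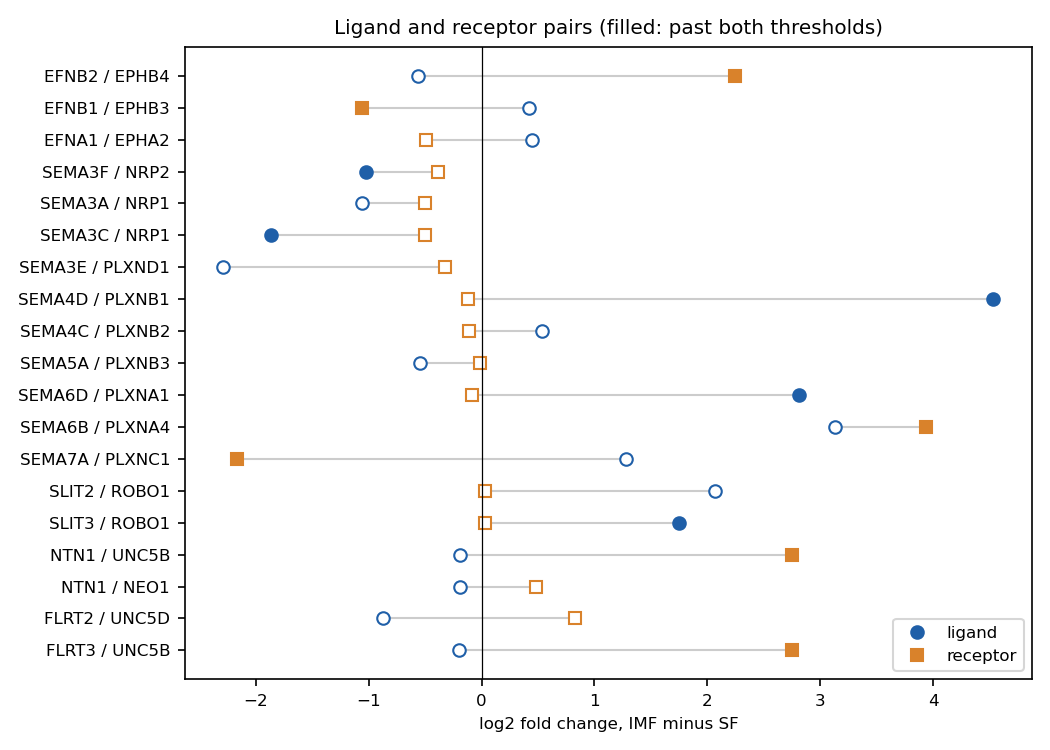
Log2 fold change (IMF minus SF) of ligand (circle) and receptor (square) in 19 pairs, filled where both thresholds were passed. *SEMA7A* (1.28) and *PLXNC1* (-2.17) lie on opposite sides of 0.

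Of 15 co-receptors and other cues of the same pathways tested, 3 passed both thresholds (20%, against 8.82% of all genes), 2 higher and 1 lower in IMF, and the median absolute log2 fold change was 0.41. *MET*, the hepatocyte growth factor receptor that associates with B-type plexins, had a log2 fold change of 1.84 (SE 0.41, adjusted p = 0.0126), and *L1CAM*, an adhesion molecule that joins neuropilin-1, of 1.31 (SE 0.28, adjusted p = 0.0105). *NTNG2*, a netrin-G anchored to the membrane, was lower in IMF with 208, 313, 242 and 249 counts against 1843, 968, 507 and 280 counts in SF (log2 fold change -2.06, SE 0.53, adjusted p = 0.0226). The *NTNG2* call was lost without any 1 of the IMF clones (adjusted p = 0.0574, 0.0596, 0.0604 and 0.0538 for IMF1 to IMF4) and by limma-voom (0.0684), and the log2 fold change was -1.39 without SF1. *NRP2* was uneven in SF, with 534, 969, 2320 and 1224 counts, and had an adjusted p-value of 0.420.

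Of 41 intracellular transducers of guidance signals tested, 5 passed both thresholds (12.2%, against 8.82% of all genes), 1 higher and 4 lower in IMF, with a median absolute log2 fold change of 0.29 against 0.38 for all genes. *FARP1*, a guanine nucleotide exchange factor that acts downstream of plexins, was lower (log2 fold change -1.37, SE 0.09, adjusted p = 3.14e-05), as were *DPYSL3* of the collapsin response mediator family (-1.26, SE 0.18, adjusted p = 0.00162), the GTPase gene *RND2* (-1.52, SE 0.28, adjusted p = 0.00488) and the Rac GTPase activating gene *CHN2* (-2.44, SE 0.48, adjusted p = 0.00655).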

How the data were processed

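RNA-seq of 8 clones, 4 IMF and 4 SF, was used. The authors deposited raw counts per gene and clone, with a gene length in bases. They trimmed the reads, and the submitters' processing notes name Trimmomatic 0.39, STAR 2.7.11a, featureCounts 2.0.2 and DESeq2 1.42.0, whereas the paper's methods name HISAT2 as the aligner, ARS-UCD2.0 as the genome, another DESeq2 version and TPM as the unit. Since the deposited values are whole and their totals unequal, they were treated as counts. The authors also deposited group means as a signal, a scaled mean signal, a log2 fold change, a test statistic (a score) and p-values of their own comparison, which were not used. Columns of other series numbered 0.

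The row without a gene name (0.0148 to 0.0209% of counts) was left out. The 18339 genes that reached 20 counts over all clones (532 did not) entered edgeR 4.0.16 (R 4.3.3, TMM, two-sided quasi-likelihood test, Benjamini-Hochberg adjustment), with the thresholds an adjusted p-value of 0.05 and an absolute log2 fold change of 1. CPM used TMM library sizes, and TPM used the deposited lengths. A level at or under 3 counts per clone was taken as the floor, and a fold against a group without a read was computed against it, while a group with 1 read gives a ratio with its exact counting interval. An exact permutation test of 4 against 4 cannot go below 0.0286, and none was run. On simulated counts in which 200 of the 18339 had a true log2 difference of 2, edgeR recovered 173 with 9 false calls, DESeq2 189 with 45 and limma-voom (limma 3.58.1) 162 with 7. The simulation gave both groups the same spread and changed only genes with a mean above 1 CPM. It therefore does not cover the wider spread of the SF clones or genes near the floor. Figures were drawn with matplotlib 3.10.9 in Python 3.11.15.

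Clones were grouped by their titles. Each clone was counted as 1 sample by its title. Pairs of clones of a group differed by more than counting error (median chi-square per gene 1.43 to 3.08 in IMF and 3.71 to 8.51 in SF, where counting error alone gives 0.455). This excess, smaller in IMF, does not show whether the clones were independent. Every member past both thresholds was named, with the member of highest mean TPM in each class, members at the floor in one group, and up to 6 changed genes of each of the other guidance lists. *EFNB2*, *NTN1*, *PLXNA1*, *PLXNA3*, *PLXND1*, *SEMA3A*, *SEMA3B*, *SEMA3E*, *SEMA4A*, *SEMA4F*, *SEMA5A*, *SEMA6B*, *SEMA7A*, *NRP1*, *NRP2* and *NEO1*, the 19 pairs and the uneven genes were chosen after their values were seen. A gene chosen by this rule is not reported here. The members, lists and tests were chosen with earlier results of these data known. Symbols and coordinates come from RefSeq's ARS-UCD2.0 list, in which all 52 members were found. Alternatives were DESeq2, limma-voom, RLE, upper quartile or total-count scaling, no filter or at least 10 counts in at least 4 clones, the unnamed row kept, the clone number as a block, robust dispersion, glmTreat against the fold threshold, a larger prior count (2) and each clone left out. Restricting to RefSeq IDs and removing or halving genes with 8 even counts were added after seeing the data.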

Additional observations from a re-analysis of the deposited data

Results flagged for a closer look

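The groups of 4 clones with any spread were checked for the named semaphorins, plexins, ephrins, Eph receptors, Slits, Robos, netrins and UNC5 receptors. In 6 of the 83 groups 1 clone stood apart from the other 3 by Dixon's criterion. It flags about 1 in 20 groups of normally distributed values by chance. Some of these genes were named after their values were seen, so that rate is no yardstick for the 6. *NTN3* was at 1.43 CPM in IMF4 and at 0.480 to 0.635 CPM in the other IMF clones. *PLXNA4* was at 2.41 CPM in SF1 and at 0 to 0.325 CPM in the other SF clones. *SEMA4G* was at 13.5 CPM in SF1, against 6.89 to 7.79 CPM. *ROBO4* was at 0.0513 CPM in SF1, which is 1 read, and at 0 in the others. *SLIT2* was at 8.98 CPM in SF4, against 0 to 1.42 CPM, and *SEMA6B* at 4.13 CPM in SF4, against 0.0406 to 0.10 CPM.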

How the results depend on the processing

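The count of changed guidance genes was 26 with DESeq2 and 25 with limma-voom, both of which included the 22, while the share called among all genes was 10.9% and 9.66%, against 8.82% with edgeR. DESeq2 added *SEMA3A*, *SEMA3E*, *SEMA4A* and *SEMA6B*, and limma-voom *SEMA6B*, *SEMA7A* and *SLIT2*. With edgeR and no filter the count was 23, adding *SEMA3A* (8.59% of all genes). It was 24 with the stricter filter (9.70% of all genes) and also with RefSeq IDs only (10.8%), each adding *SEMA3A* and *SEMA4A*. When glmTreat tested for a change larger than the fold threshold, 13 guidance genes passed, 4 of them lower in IMF (3.44% of all genes passed, and 75.4% of those were higher in IMF), and 0 co-receptors and other cues (7 had an unadjusted p under 0.05 in the edgeR test against 0) and 2 transducers did. The 9 guidance genes that did not pass this test were *EPHA5*, *EPHB3*, *NTN3*, *PLXNA4*, *SEMA3F*, *SEMA3G*, *SEMA4B*, *SEMA4G* and *SLIT3*, with adjusted p-values from 0.124 (*SEMA3G*) to 1 (*EPHA5*, *EPHB3* and *SEMA3F*). Leaving out each clone in turn gave 20 to 23 guidance genes (11 to 15 higher, 8 to 10 lower; 7.30 to 9.04% of all genes), 2 to 4 co-receptors and other cues and 5 to 8 transducers, with 8 transducers without SF1. Deviations from the group mean correlated at a mean of 0.055 in same-numbered pairs of clones (from -0.0093 to 0.139) and -0.018 in the others. With so few pairs this cannot show whether same-numbered clones shared a steer. With the clone number as a replicate block 23 guidance genes passed (8.12% of all genes), the 22 and *SEMA6B* (log2 fold change 4.84, adjusted p = 0.0497), and *NTNG2* no longer passed (adjusted p = 0.0708).

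Among 50 named genes, 1078 of 1147 alternative values kept their direction and their side of the thresholds, 35 no longer passed, 21 newly passed and 13 changed sign. *NTN1* turned to 0.61 with limma-voom, 0.58 with the replicate block, 0.38 without SF3 and 0.15 without SF4, with -0.56 to 0.38 as the range when each clone was left out. *PLXNA1* turned to 0.066 with total counts alone and 0.018 without SF1 (range -0.16 to 0.018 when each clone was left out), and *PLXNB2* to 0.027 with total counts alone. *ROBO1* turned to -0.0044 with no filter, -0.00046 with the stricter filter, -0.01 without IMF2, -0.21 without SF4, -0.0019 with RefSeq IDs only and -0.0031 without genes of even counts, with -0.21 to 0.15 as its range when each clone was left out. None of these sign changes passed the thresholds, and their cause was not tested. Depth limits the genes under about 1 CPM, such as *SEMA3E*, *SLIT1*, *EPHA7* and *UNC5D*, which averaged under that level in both groups.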
